A study of Homo sapiens with 6 samples.

Results

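The 9 genes described here act in the production of type I interferon or in the response to it: IFNB1, IFNAR1, IFNAR2, JAK1, TYK2, STAT2, IRF9, IRF3 and IRF7. They were taken by name from the deposited table of 60843 genes, and each name matched 1 row. RNA was sequenced from the human liposarcoma line SW872-S, as 3 libraries with a plasmid that overexpresses TP53INP2 (genotype TP53INP2 OE, here TP53INP2_OE) and 3 libraries of the genotype TP53INP2 NC (here NC). All 6 are labelled as this 1 line, grown in DMEM with 10% fetal bovine serum, though the design text speaks of more than 1 cell source. What NC stands for is not spelled out. TP53INP2 encodes a protein of the nucleus and of autophagosomes. The labels give neither the time after plasmid delivery nor the culture or clone behind each library. The p-values therefore reflect only how far these libraries differ, a spread that may be technical.

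Type I interferons such as interferon beta, the product of IFNB1, bind a surface receptor built from the chains IFNAR1 and IFNAR2. The kinase TYK2 sits on IFNAR1 and the kinase JAK1 on IFNAR2, and once activated they phosphorylate STAT2, which works with IRF9 as part of a transcription factor complex. IRF3 and IRF7 act one step earlier: they are phosphorylated when a cell senses viral nucleic acid, and they switch on IFNB1.

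The promoter of IFNB1 and that of IRF9 are shown because they are the start regions, among the 6 of these 9 genes found in RefSeq's promoter table (GRCh38.p14), in which IRF-type motifs lay close to the start site. Both are the 250 bases before the annotated start, written 5′ to 3′ on the gene's own strand. IFNB1 is at chr9:21077943-21078192 on the minus strand and IRF9 at chr14:24161015-24161264 on the plus strand. Capitals mark AANNGAAA, which IRF proteins bind, GGAAATTCC, an NF-kB motif, and TTCNNNGAA, the motif of STAT dimers, each searched on both strands.
IFNB1: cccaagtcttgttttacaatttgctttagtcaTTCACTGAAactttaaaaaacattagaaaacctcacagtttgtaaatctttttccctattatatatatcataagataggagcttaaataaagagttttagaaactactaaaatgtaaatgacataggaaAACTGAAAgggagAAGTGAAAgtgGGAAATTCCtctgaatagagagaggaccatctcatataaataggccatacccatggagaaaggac
IRF9: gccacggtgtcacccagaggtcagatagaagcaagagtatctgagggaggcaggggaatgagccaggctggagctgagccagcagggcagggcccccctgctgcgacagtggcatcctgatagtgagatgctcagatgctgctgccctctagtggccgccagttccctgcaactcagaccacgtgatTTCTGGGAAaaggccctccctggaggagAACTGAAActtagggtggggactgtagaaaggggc
IFNB1 held 2 AANNGAAA matches, whose first bases lay 89 and 76 bases before the start, followed by GGAAATTCC from base 65. IRF9 held 1 AANNGAAA match, 35 bases before the start, and each promoter held 1 TTCNNNGAA match. Of 35116 promoter windows of the same length, 20.3% held AANNGAAA, 6.57% TTCNNNGAA and 0.413% GGAAATTCC, and no marked match overlapped another. The windows of STAT2, TYK2 and IFNAR1 held none of the 3 motifs, and 1 of the 3 start sites of JAK1 had an AANNGAAA match, at base 203. A match describes letters only.

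The labels were checked first against TP53INP2 itself, which was at 10.6, 9.45 and 9.67 FPKM (fragments per kilobase of gene, scaled to the size of the library) in NC and at 18.9, 23.4 and 27.1 in TP53INP2_OE (log2 fold change 1.13, limma adjusted p = 0.00282). The libraries held between 16038062 and 17607612 reads assigned to genes. Mesenchymal markers summed to between 1472 and 1589 FPKM, and 5 of 8 were above 1 FPKM, while COL1A2, COL3A1 and THY1 were not. Of these markers FN1 rose and COL1A1, PDGFRB and ENG fell, and of the endothelial ones TEK rose and CDH5 fell. By the same limma test, described below, 35.0% of all tested genes were called in either direction. The mature adipocyte markers ADIPOQ, LEP and FABP4 were listed at 0 in every library, and the 5 epithelial markers summed to at most 0.467 FPKM. Leukocyte markers summed to 0.446 to 0.874 FPKM in NC and 0.583 to 0.718 in TP53INP2_OE, and all 6 were below 1. Of the plasmacytoid dendritic cell markers, CLEC4C and LILRA4 were listed at 0 and TLR7 was below 1 FPKM, while IL3RA had a mean of at least 1 FPKM. The 4 together summed to 0.786 to 1.46 FPKM in NC and 1.02 to 1.19 in TP53INP2_OE. The endothelial genes PECAM1, CDH5 and TEK were above 1 FPKM, and the sum of the 4 endothelial markers was 46.4 to 51.0 in NC and 46.0 to 47.6 in TP53INP2_OE. Fewer cells with a given RNA and less of it per cell cannot be told apart in such bulk libraries.

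Of the 9 genes, 8 had a mean of at least 0.5 FPKM and were tested, and IFNAR2 was not. JAK1 and IFNAR1 rose, TYK2 and IRF3 fell, and IFNB1, STAT2, IRF9 and IRF7 did not pass (limma on log2(FPKM + 1), Benjamini-Hochberg over all 14791 genes tested, threshold 0.05). The share called among all tested genes was 35.0%, with 16.4% rising and 18.6% falling, against 4 of these 8. In 7507 of the 14791 genes, 50.8%, the libraries of the groups did not overlap, and the same held for 4 of these 8. With GC content and gene length fitted out of each library, an alternative described further on, JAK1 still rose and IRF3 still fell, while IFNAR1 and TYK2 no longer passed. For JAK1 the GC content used in that fit leaves out part of the sequence counted for it. The median log2 fold change was -0.012 over the 8 genes and 0.0032 over all tested genes. Fold changes are given as TP53INP2_OE over NC after adding 1 FPKM, so those of low genes come out too small.

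**Figure D1:**
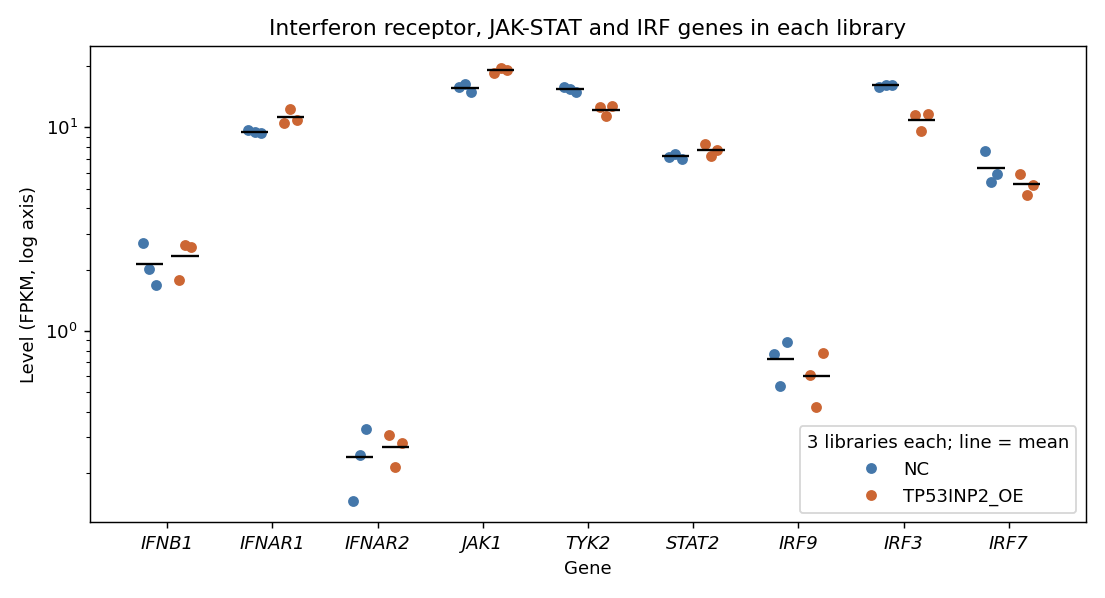
Level of each of the 9 genes in each library, in FPKM on a log axis, with NC in blue and TP53INP2_OE in orange and a line at each group's mean. JAK1 and IFNAR1 are higher in all 3 TP53INP2_OE libraries and TYK2 and IRF3 lower in all 3, while IRF9 and IFNAR2 lie below 1 FPKM throughout.

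The ligand gene IFNB1 (ENSG00000171855, chromosome 9, 21077104 to 21077942) was present at a low level in both groups. It was at 2.71, 2.02 and 1.67 FPKM in NC and at 1.77, 2.64 and 2.57 in TP53INP2_OE. The highest value was in an NC library, and the groups overlapped. These levels rested on 25 to 37 reads per library in NC and 24 to 38 in TP53INP2_OE. Summed over the group they came to 92 reads (exact Poisson 95% interval 74.2 to 113) and 97 (78.7 to 118), intervals that cover counting error only. The log2 fold change was 0.089 (95% interval -0.28 to 0.46, limma adjusted p = 0.699). Changes in either direction within that interval are compatible with these libraries. Without NC replicate 3 the value was -0.019.

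Of 20 other interferon genes, among them 13 of the alpha family, 12 were listed at 0 in all libraries, and only IFNL1, a type III interferon, reached the threshold for testing. IFNL1 had 1.58, 2.77 and 1.23 FPKM in the NC libraries, a range that overlapped that of IFNB1, and in NC replicate 2 it lay above IFNB1. Its mean was 1.86 ± 0.81 FPKM in NC against 1.46 ± 0.24 in TP53INP2_OE (SD, n = 3 each; log2 fold change -0.18, limma adjusted p = 0.508). IFNE, an interferon of epithelia, was at 0.143 ± 0.0775 and 0.261 ± 0.18 FPKM.

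The receptor chain gene IFNAR1 (ENSG00000142166, chromosome 21, 33324429 to 33359864) was at 9.69, 9.46 and 9.38 FPKM in NC. In TP53INP2_OE it was at 10.5, 12.3 and 10.9, so that all 3 libraries lay above NC, with the second the highest. The rise was 1.18-fold on the means, with a log2 fold change of 0.22 ± 0.060 (SE; limma adjusted p = 0.0312). This call was lost when any 1 of 4 libraries was left out: NC replicate 1 (adjusted p = 0.0741), NC replicate 2 (0.0884), NC replicate 3 (0.0836) or TP53INP2_OE replicate 3 (0.0551), within a range of 0.00208 to 0.405 over all alternatives. It was also lost with GC content and length fitted out (log2 fold change 0.077).

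The partner chain gene IFNAR2 (ENSG00000159110, chromosome 21, 33229901 to 33265675) was the lowest of the 9. It was at 0.146, 0.245 and 0.328 FPKM in NC and at 0.308, 0.215 and 0.281 in TP53INP2_OE. The groups overlapped, and the values rested on 11 to 27 reads per library. IFNAR1 was 39.6-fold above IFNAR2 in NC on this scale. The exons of IFNAR2 are largely shared with other annotated genes: in GENCODE release 29, 44.2% of its exonic bases also belong to AP000295.1, a protein-coding read-through on the same strand, and 39.1% to IL10RB-DT on the other strand, leaving 16.8% to IFNAR2 alone. AP000295.1 was listed at 0 in 5 of the 6 libraries and had 1 read in the other, and IL10RB-DT had 0 to 7 reads. How shared exons were counted was not given in the sources used here. If all IFNAR2 reads came from the 773 unshared bases, the level would be 1.44 ± 0.56 FPKM in NC against 1.61 ± 0.29 for TP53INP2_OE (SD, n = 3 each), a calculation chosen after seeing the data. Its part in the low level was not tested.

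Of 4 receptor chains of the other interferon types, IFNLR1 and IL10RB were too low to be tested, and the other two did not pass. IFNGR1, the ligand-binding chain for interferon gamma, was at 13.3 ± 1.52 FPKM in NC and 15.8 ± 0.64 in TP53INP2_OE (log2 fold change 0.24, limma adjusted p = 0.0567; 0.00659 to 0.551 over the alternatives). IFNGR2, its partner chain, was at 15.4 ± 0.71 and 15.4 ± 0.37 FPKM (limma adjusted p = 0.995).

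Of the receptor-bound kinases, JAK1 rose and TYK2 fell, and only the call of JAK1 held with GC content and length fitted out (log2 fold change 0.21, against -0.048 for TYK2). JAK1 (ENSG00000162434, chromosome 1, 64833229 to 65067754) was at 15.8, 16.3 and 15.0 FPKM in NC and at 18.5, 19.7 and 19.1 in TP53INP2_OE. All 3 TP53INP2_OE libraries lay above all 3 of NC, and the spread within each group was small. The log2 fold change was 0.27 ± 0.044 (SE; 95% interval 0.16 to 0.38, limma adjusted p = 0.0059), a rise of 1.22-fold on the means.

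TYK2 (ENSG00000105397, chromosome 19, 10350529 to 10380572) was at 15.8, 15.4 and 14.9 FPKM in NC and at 12.6, 11.3 and 12.8 in TP53INP2_OE. The groups did not overlap, in the direction opposite to JAK1. The log2 fold change was -0.31 ± 0.054 (SE; 95% interval -0.44 to -0.18, limma adjusted p = 0.00681), which left 0.796 of the NC mean.

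The ratio of JAK1 to TYK2, a quantity chosen after their values were seen, was 1.00, 1.05 and 1.01 in the NC libraries. It was 1.47, 1.74 and 1.5 in TP53INP2_OE, all above NC. Since the pair was chosen for its opposite changes, this is a description with no test. On the log2 scale the gap between JAK1 and TYK2 widened by 0.58 in TP53INP2_OE, and the GC and length fit brought this to 0.26. IFNAR1 and JAK1 both rose, and their ratio was 0.607 ± 0.023 against 0.587 ± 0.031 (NC and TP53INP2_OE, SD, n = 3 each). With GC content and length fitted out IFNAR1 minus JAK1 was -0.63 and -0.76 on the log2 scale, and the groups no longer overlapped. The gene length behind the JAK1 value in the table is 12620 bases, against 6317 exonic bases in GENCODE release 29. The same reads over the shorter length, scaled to the reads assigned in each library, would put JAK1 at 31.5 ± 1.19 and 38.5 ± 1.17 FPKM, so its level against other genes depends on the annotation. Its fold change on reads from those 6317 bases alone was not measured.

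**Figure D2:**
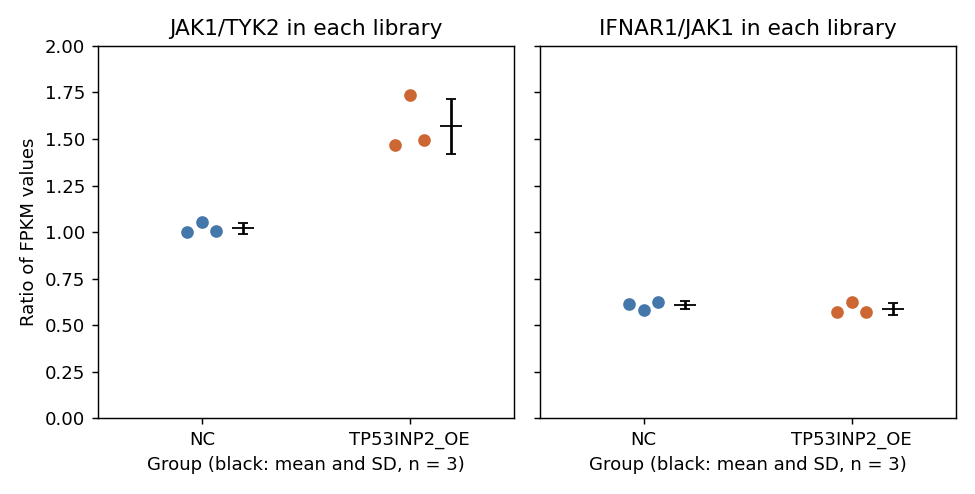
FPKM of JAK1 divided by that of TYK2 (left) and of IFNAR1 divided by that of JAK1 (right) in each library, with the mean and SD of each group of 3 in black. The JAK1 to TYK2 ratio is near 1.02 in NC and 1.57 in TP53INP2_OE, while the ratios of IFNAR1 to JAK1 overlap between the groups.

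Neither STAT2 nor IRF9, the signal carriers below the kinases, passed. STAT2 (ENSG00000170581, chromosome 12, 56341597 to 56360167) was at 7.18, 7.40 and 7.03 FPKM in NC and at 8.24, 7.22 and 7.76 in TP53INP2_OE. One TP53INP2_OE library lay within the NC range. The log2 fold change was 0.090 (95% interval -0.041 to 0.22, limma adjusted p = 0.251), and no alternative passed. With 1 library left out it was 0.049 to 0.13, lowest without TP53INP2_OE replicate 1.

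IRF9 (ENSG00000213928, chromosome 14, 24161265 to 24166565), which gives the complex that holds STAT2 its DNA contact, was at 0.771, 0.536 and 0.877 FPKM in NC. In TP53INP2_OE it was at 0.604, 0.423 and 0.775, with 26 to 45 reads per library against 34 to 56 in NC. The groups overlapped (log2 fold change -0.11, 95% interval -0.44 to 0.22, limma adjusted p = 0.571). With 1 library left out the value was -0.19 to -0.030, nearest 0 without TP53INP2_OE replicate 2. On the deposited FPKM scale STAT2 was 9.89-fold above IRF9 in NC. As with IFNAR2, the exons are shared: 48.4% of the exonic bases of IRF9 belong also to AL136295.5, a protein-coding read-through on the same strand that had 8 to 21 reads per library. If all IRF9 reads came from the 1956 unshared bases, the level would be 1.34 ± 0.32 and 1.11 ± 0.33 FPKM (SD, n = 3 each). The part of the shared exons in the low level was not tested.

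Among the transcription factors that switch on IFNB1, IRF3 (ENSG00000126456, chromosome 19, 49659569 to 49665875) had the largest change of the 8 tested genes. It was at 15.8, 16.2 and 16.2 FPKM in NC and at 11.5, 9.64 and 11.6 in TP53INP2_OE. The NC libraries were nearly equal, and all 3 TP53INP2_OE libraries were lower, the second most of all. The log2 fold change was -0.52 ± 0.071 (SE; 95% interval -0.69 to -0.36, limma adjusted p = 0.00355), which left 0.679 of the NC mean.

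IRF3 overlaps BCL2L12, a gene of the opposite strand, in 19.3% of its exonic bases. BCL2L12 fell too, from 16.2, 15.8 and 16.7 FPKM to 11.8, 11.1 and 12.5 (log2 fold change -0.43, limma adjusted p = 0.00301). With GC content and length fitted out BCL2L12 had -0.19 and did not pass (limma adjusted p = 0.0561). Without a stated strand setting, reads in the shared bases cannot be assigned to one of them with certainty. Among other genes that overlap one of the 9, RAVER2 shares 4 exonic bases with JAK1. USF1P1 within IFNAR1, RNU7-40P within STAT2, and AL606517.1, AL606517.2, SLC2A3P2, LINC01359, AL357078.2, RNU6-1176P, MIR101-1 and MIR3671 within JAK1 shared none in GENCODE release 29.

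IRF7 (ENSG00000185507, chromosome 11, 612553 to 615983), the factor that carries the later and larger wave of interferon production, was at 7.63, 5.36 and 5.93 FPKM in NC and at 5.89, 4.66 and 5.19 in TP53INP2_OE. The first NC library stood above the rest, and the groups overlapped. The log2 fold change was -0.22 (95% interval -0.52 to 0.081, limma adjusted p = 0.223), and -0.093 without NC replicate 1.

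Ordered by level in NC, IRF3, JAK1 and TYK2 came first at 16.1, 15.7 and 15.4 FPKM, with ranges that overlapped. IFNAR1 at 9.51 was apart from its neighbours on both sides. STAT2 and IRF7 followed at 7.20 and 6.31 with overlapping ranges, and IFNB1, IRF9 and IFNAR2 came last, each apart from the next. In TP53INP2_OE JAK1 stood alone at 19.1 FPKM. TYK2, IFNAR1 and IRF3 followed at 12.2, 11.2 and 10.9 with overlapping ranges between neighbours, and the order of the other 5 was as in NC.

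Base composition moved with these changes, and its part in them was not tested. Read from each gene's longest transcript in GENCODE release 29, GC content was 42.3% for IFNAR1 and 46.2% for JAK1, which rose, and 59.0% for IRF3 and 61.3% for TYK2, which fell. It was 42.0% for IFNB1, 50.2% for STAT2, 55.4% for IRF9 and 66.8% for IRF7. Across 11270 protein-coding genes, fold change and GC content had a Spearman's rho of -0.783, a description over genes, which share the same 6 libraries. When these genes were divided by GC content into 10 equal bins, 37.8% of bin 3, that of IFNAR1, rose and 12.3% of bin 5, that of JAK1. In bin 9, which holds TYK2 and IRF3, 56.6% fell, with a median log2 fold change of -0.25.

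With GC content and gene length fitted out of each library, 1 of the 8 genes rose and 1 fell, against 10.4% called among 14548 genes, 4.53% rising and 5.88% falling. JAK1 kept a log2 fold change of 0.21 (95% interval 0.11 to 0.31, limma adjusted p = 0.0309) and IRF3 one of -0.29 (-0.42 to -0.16, limma adjusted p = 0.0267). For JAK1 the fit used the deposited length of 12620 bases, but a GC content read within its 6317 exonic bases of GENCODE release 29. Whether JAK1 would pass with the GC content of its full counted length was not tested. TYK2 went to -0.048 (-0.13 to 0.032, adjusted p = 0.403; 2.64e-05 to 0.466 over the alternatives) and IFNAR1 to 0.077 (-0.044 to 0.20, adjusted p = 0.378). IRF7, IRF9 and IFNB1 changed sign, to 0.12, 0.049 and -0.033, and STAT2 was at 0.12 (0.0096 to 0.23, limma adjusted p = 0.153). The fit removes any change tied to GC content or length, whatever its source. On this scale JAK1 minus TYK2 was 0.19 ± 0.056 in NC and reached 0.44 ± 0.064 in TP53INP2_OE, against 0.027 ± 0.040 and 0.60 ± 0.12 before (log2, SD, n = 3 each). The libraries of the groups stayed apart.

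**Figure D3:**
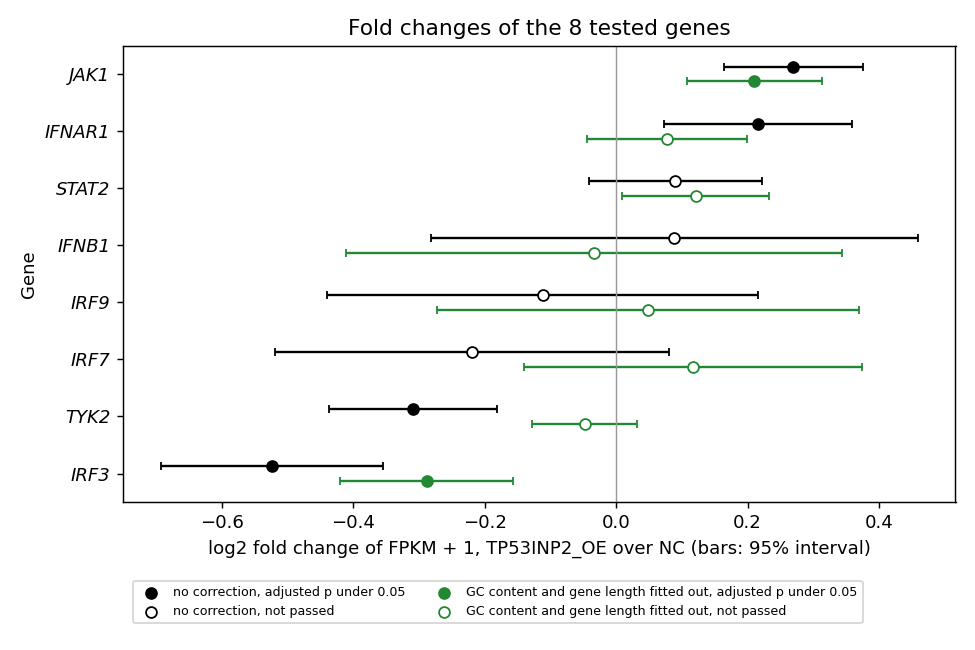
Log2 fold change of the 8 tested genes, TP53INP2_OE over NC, with 95% intervals, as deposited (black) and with GC content and gene length fitted out (green); filled points passed the adjusted threshold. JAK1 and IRF3 are filled in both, IFNAR1 and TYK2 in black only.

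**Figure D4:**
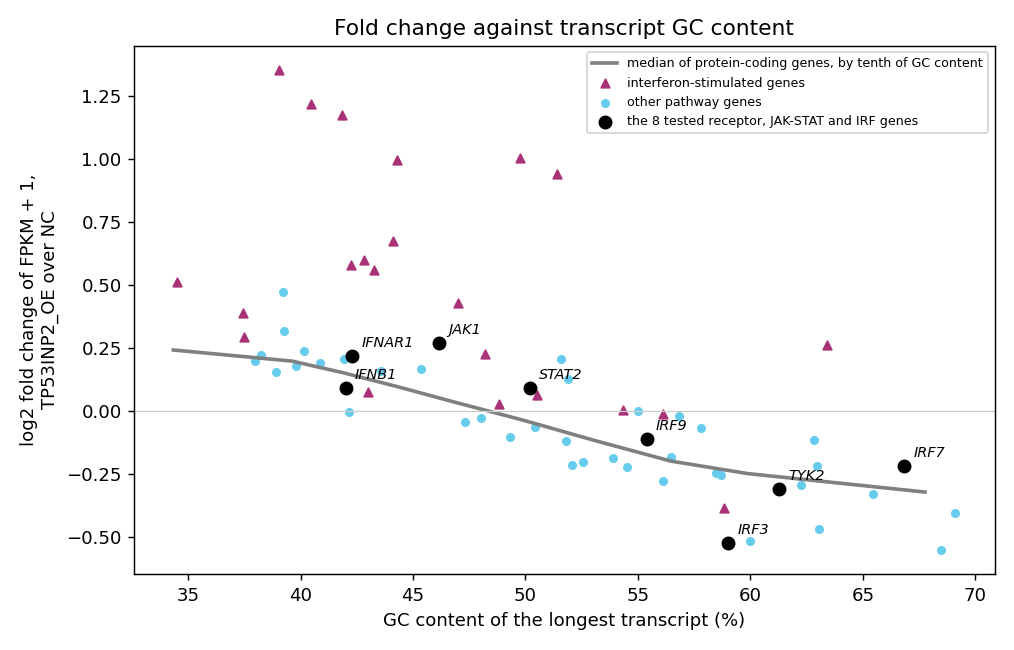
Log2 fold change against the GC content of the longest transcript for the 8 tested genes (black, named), the tested interferon-stimulated genes (triangles) and the other tested pathway genes (blue), with the median of protein-coding genes in each of the 10 bins of GC content as a grey line. TYK2 lies near the grey line, JAK1 above it and IRF3 below it, and many interferon-stimulated genes lie far above it.

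Other genes of the pathway were taken from 7 lists with 92 symbols, of which 91 had a row and 61 were tested. Of these 61, 19 rose and 13 fell, where 16.4% of all tested genes rose and 18.6% fell. The GC and length fit left 14 and 4, where 4.53% of all genes rose and 5.88% fell. Without NC replicate 1 the number falling was 8. Most rises were among the interferon-stimulated genes.

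Among the other Janus kinases and STATs, JAK2, a kinase of the interferon gamma receptor, went from 5.22 ± 0.19 to 7.63 ± 0.60 FPKM (SD, n = 3 each). Its log2 fold change was 0.47 (limma adjusted p = 0.00347), and it still passed with GC content fitted out (0.28). With a replicate block added to that fit JAK2 did not pass (limma adjusted p = 0.0523). STAT6, which serves interleukin 4, fell by 0.28 (limma adjusted p = 0.0362). It lost its call without NC replicate 1, 2 or 3 (0.0799 to 0.101). The call was also lost with quantile normalization (0.056), with TPM (0.0513) and without the low-value filter (0.0982). With GC content and length fitted out STAT6 was at -0.11 and did not pass (0.306). Over the alternatives the limma adjusted p ranged from 0.00022 to 0.306.

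Of 5 tested genes of the IRF family and its binding partners, 2 fell and none rose, where 18.6% of all tested genes fell. The GC and length fit left 1 falling. IRF2BP1, a corepressor that binds IRF2, went from 20.9 ± 0.12 to 13.9 ± 1.12 FPKM (log2 fold change -0.55, limma adjusted p = 0.00276), and passed with GC content fitted out (-0.21). IRF1, an activator induced by interferon gamma, went from 6.73 ± 0.26 to 5.72 ± 0.155 FPKM (log2 fold change -0.20, limma adjusted p = 0.0171). It lost its call without NC replicate 2 (0.0525) or NC replicate 3 (0.053), and with GC content fitted out (0.141), in a range of 0.00553 to 0.204.

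Of 11 tested inhibitors of receptor signalling, 4 fell (SOCS1, SOCS3, PIAS3 and PIAS4) and none rose (median -0.046), where 18.6% of all tested genes fell. With GC content and length fitted out none of these 4 passed and 1 other gene fell, PTPN11, a phosphatase, at -0.15. SOCS3 and SOCS1, which block Janus kinases, fell by 0.51 (9.47 ± 0.91 to 6.32 ± 0.32 FPKM) and 0.40 (7.91 ± 0.83 to 5.74 ± 0.74). With GC content fitted out neither passed, at -0.26 and -0.051, and SOCS1 also lost its call without NC replicate 1 (adjusted p = 0.0596) or NC replicate 2 (0.0685), in a range of 0.00369 to 0.772.

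Among 13 tested adaptors and kinases that lead to IRF3 and IRF7, 2 rose and 5 fell (median -0.020), so that 7 of 13 were called where 35.0% of all tested genes were. The GC and length fit left none rising and 2 falling, MAVS, the mitochondrial adaptor of RNA sensing, and IRAK1. TBK1, the kinase that phosphorylates IRF3, went from 6.44 ± 0.35 to 8.25 ± 0.33 FPKM (log2 fold change 0.32, limma adjusted p = 0.00624), opposite in direction to IRF3 itself. TRAF6, a ubiquitin ligase upstream of IRF7, rose by 0.20 and lost its call without any one of NC replicates 1 and 2 or TP53INP2_OE replicates 1 to 3 (adjusted p 0.055 to 0.107; 0.0112 to 0.589 over the alternatives). IRAK1, a kinase of Toll-like receptor signalling, went from 127 ± 4.84 to 91.7 ± 5.26 FPKM (log2 fold change -0.47) and TBKBP1, an adaptor of TBK1, from 8.31 ± 0.31 to 6.42 ± 0.37 (-0.33). With GC content fitted out TBK1 (0.12), TRAF6 (0.055) and TBKBP1 (-0.012) did not pass, and IRAK1 did (-0.17).

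Of 22 tested interferon-stimulated genes, 15 rose and 1 fell, with a median log2 fold change of 0.47. Among all tested genes 16.4% rose and 18.6% fell. The GC and length fit gave 13 rising and none falling, with a median of 0.42. Under that fit 4.53% of all genes rose and 5.88% fell. IFI44 and DDX58, which encodes the RNA sensor RIG-I, had log2 fold changes of 1.35 and 1.22, and IFI35 had -0.39, which did not pass with GC content fitted out (-0.14). The list was chosen with earlier results of these libraries known, so its direction is a description. Beside it, IFNB1 and STAT2 did not pass, JAK1 rose by 0.27 and IRF3 fell by 0.52, which the GC and length fit brought to 0.21 and -0.29.

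**Figure D5:**
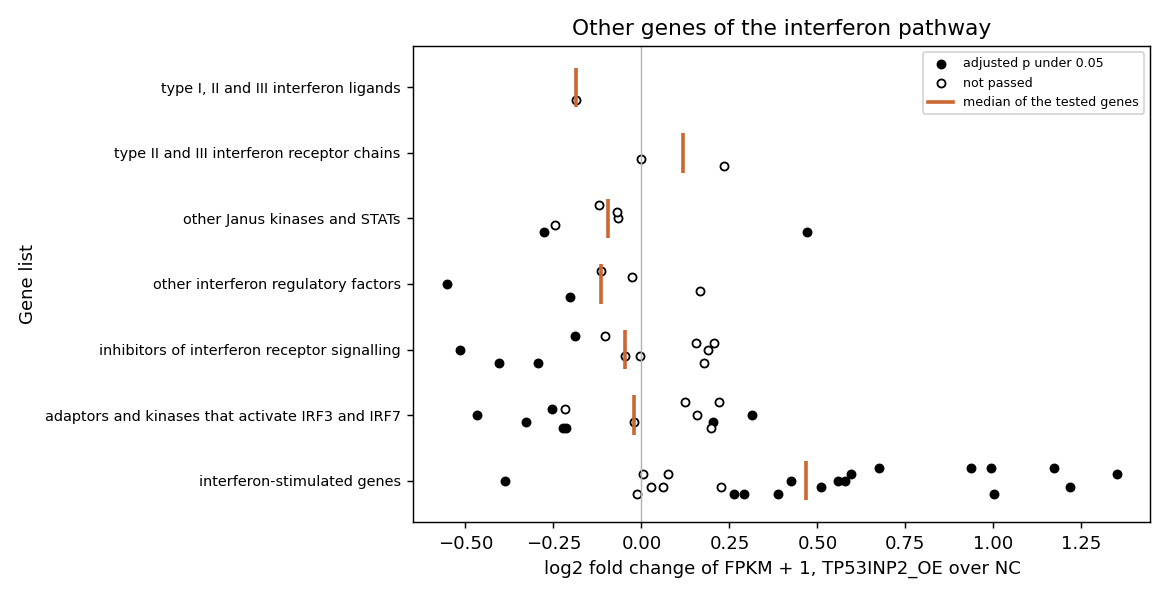
Log2 fold change of the tested genes reported here in the 7 lists, TP53INP2_OE over NC, filled where the adjusted p was under 0.05, with the median of those shown in orange. The interferon-stimulated genes have a median of 0.47, and the medians of the other 6 lists lie between -0.18 and 0.12.

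By Pearson's r of log2(FPKM + 1) over the 6 libraries, the genes most like JAK1 were SLC1A3, IVNS1ABP and RAD17 (r = 0.999, 0.998 and 0.998). Those most like IRF3 were HMG20B, HSD17B10 and FLOT2 (0.999 for each). With 14791 genes and 6 libraries such values are common: 697 genes had an r above 0.95 with JAK1 and 1190 with IRF3.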

How the data were processed

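Per the file headers, the authors deposited FPKM values of 60843 genes beside name, position, length and type. Bowtie 0.12.2 is listed per the submitters' processing notes, as are 2 builds, GRCh38 and mm8, with no role for any of them. Read assignment and strand setting were not given in the sources used here. Of the gene IDs, 96.2% were in GENCODE release 29 (GRCh38), 92.8% of these with the same start or end. FPKM times gene length, divided by its smallest value above 0, was whole in 100% of values (tolerance 0.01) and was taken as reads. No libraries were alike within sampling noise (chi-square per degree of freedom 2.58 to 4.97 within groups).

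Values were tested as log2(FPKM + 1) where the gene's mean reached 0.5 FPKM, with limma 3.58.1 in R 4.3.3 (empirical Bayes with trend, two-sided, Benjamini-Hochberg over all tested genes), without a block. The limma code was tested on simulated data. GC content and log2 length were fitted out with natural splines of 5 degrees of freedom. Other alternatives covered the pseudocount, filters, scaling, voom on recovered reads, gene type, a replicate block and each library left out. Poisson intervals used SciPy 1.17.1. Members and lists were chosen with earlier results of these data known.

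Genes named are TP53INP2, all 9 members, genes overlapping them, up to 2 called genes per list and direction with the largest change (the 2 of highest mean FPKM where none was called), and the 3 genes most correlated with the members of largest rise and fall. BCL2L12, JAK1 length and marker genes are given beside these. IFNLR1, IL10RB, PIAS3, PIAS4, PTPN11, MAVS and the ratios between members were chosen after their values were seen. IRAK4 and the promoters of IFNAR2, IRF3 and IRF7 were not analysed here. Results for 1 gene of the lists are not reported here and it is not drawn in the plots, while counts over all lists include it.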

Additional observations from a re-analysis of the deposited data

How the results depend on the processing

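Across 16 alternatives STAT2 never passed, JAK1 and IRF3 passed in 15 and TYK2 in 14, each in 1 direction. Fitting out GC content and gene length left 2 of the 4 member calls (1 rising, 1 falling), 1514 genes called in place of 5183 (659 rising, 855 falling) and 18 pathway list genes in place of 32 (4 falling). IFNAR1 then had 0.077 and TYK2 -0.048, and IFNB1, IRF9, IRF7 and IFNL1 changed sign to -0.033, 0.049, 0.12 and 0.0099. The fit covers 14548 genes. Without the low-value filter 1 member rose and 2 fell, where 1683 of all 32504 genes then tested rose and 1965 fell. IFNAR1, with its log2 fold change of 0.22, had a limma adjusted p of 0.0731 in that fit.

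The labels do not say whether the replicate numbers pair the samples. Same-numbered deviations from the group means had correlations of 0.017, 0.012 and 0.011, and not every library correlated best with its own number. Correlations this weak, from 3 libraries per group, cannot show that a pairing is absent. With the replicate block 1 member rose and 2 fell, and IFNAR1 (0.22) had a limma adjusted p of 0.0555. Of all 14791 genes tested 4396 were called, 1980 rising and 2416 falling. The block with GC content and length fitted out left 0 members called (0 rising, 0 falling) by limma, where JAK1 was at 0.21 and IRF3 at -0.29 (adjusted p = 0.062 and 0.0534), TYK2 at -0.048 and IFNAR1 at 0.077, with an unadjusted p under 0.05 in 2 members. It called 668 genes (267 rising, 401 falling) and 14 list genes (12 rising, 2 falling), and gave -0.033, 0.049, 0.12 and 0.0099 for IFNB1, IRF9, IRF7 and IFNL1.

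Leaving out 1 library gave 3 to 4 member calls (1 to 2 rising, 2 falling each time). All genes called ranged from 3276 to 4779 (1460 to 2203 rising, 1816 to 2576 falling), lowest without NC replicate 1, and without NC replicate 2 there were 1614 rising. List genes called ranged from 24 to 32 (16 to 20 rising, 8 to 13 falling). The ranges were 0.16 to 0.26 for IFNAR1, -0.019 to 0.22 for IFNB1, 0.24 to 0.29 for JAK1, -0.34 to -0.26 for TYK2 and -0.57 to -0.44 for IRF3. IFNL1 ranged from -0.35 to 0.032, the latter without NC replicate 2. IFNGR2, at -0.00046, turned to 0.025 with quantile normalization, 0.016 with TPM, 0.0026 with voom, 0.16 with GC content fitted out, with or without the replicate block, and ranged from -0.037 to 0.018 with 1 library left out. The cause was not tested in any of these. Fewer than 60 reads per library limit IFNB1, IRF9 and IFNAR2.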

Other observations

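The gene IL10RB, which encodes the shared chain of the interferon lambda and interleukin 10 receptors and lies between IFNAR2 and IFNAR1 on chromosome 21, was listed at 0.098 ± 0.0027 FPKM (NC) and 0.116 ± 0.020 (TP53INP2_OE; SD, n = 3 each). Its position, 33266367 to 33310187, overlaps the read-through AP000295.1 (33229901 to 33297160), as IFNAR2 does, while IFNAR1 and IFNGR2 of the same chromosome were at 9.51 ± 0.16 and 15.4 ± 0.71 FPKM in NC. The part of the shared positions in the low level of IL10RB was not tested.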
